A study of Homo sapiens with 18 samples.

Results

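The genes of the proteasome and of its assembly were chosen by name: every protein-coding gene whose symbol is PSMA, PSMB, PSMC, PSMD, PSME, PSMF or PSMG followed by a number, except PSMB8 and PSMB9, together with POMP. The rule found 47 genes, out of 58735 in the RBCK1 and ANKRD35 tables and 29928 symbols in the MITD1 table, and all 47 are listed in each table. They comprised 8 alpha and 9 beta subunits of the core particle, 6 ATPases and 14 other genes of the regulatory cap, 4 activator genes, the inhibitor gene PSMF1 and 5 assembly factors. RNA-seq was available for 18 libraries of 786-O cells, an established line of clear cell renal carcinoma that lacks functional VHL, grown in RPMI-1640 with serum. Cells labelled shRBCK1 carried an shRNA against RBCK1, which encodes a subunit of the ligase complex that makes linear ubiquitin chains, and were compared with shcontrol cells. Cells labelled siANKRD35 were compared with sicontrol_for_siANKRD35 cells, and siMITD1 cells with sicontrol_for_siMITD1 cells, with 3 libraries in each of the 6 groups. The series title places RBCK1, ANKRD35 and MITD1 on an axis that affects the response to sunitinib, and no group is labelled as drug-treated. All libraries come from a single cell line. The sources used here do not give the number of clones or cultures, the time after knockdown or the hairpin and siRNA sequences. P-values therefore measure only how these libraries vary, and part of that may be technical.

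The proteasome degrades proteins tagged with ubiquitin. Its barrel-shaped core stacks rings of alpha subunits, which gate the entrance, on rings of beta subunits, of which PSMB5, PSMB6 and PSMB7 carry the proteolytic sites. In cells exposed to interferon, PSMB10 takes the place of PSMB7 while PSMB8 and PSMB9 take the places of PSMB5 and PSMB6, and the PSME1 and PSME2 proteins form a ring-shaped activator that can dock on the core instead of the cap. The cap recognises ubiquitin chains, removes them and unfolds the substrate with its ring of ATPases. The transcription factor encoded by NFE2L1 is known for raising proteasome genes together when proteasome activity is limiting.

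The knocked-down gene was lower in each comparison. RBCK1 was at 480.3 FPKM (fragments per kilobase of transcript, scaled to library depth) on average in shcontrol and 31.9 in shRBCK1, ANKRD35 at 727 and 0.0111, and MITD1 at 7.47 and 2.71 (n = 3 each). The control groups were not alike: RBCK1 stood at 70.8 and 65.5 FPKM in the other control groups, and ANKRD35 at 0 and 0.006399. The kidney lineage gene PAX8 and the keratin and vimentin genes were present in all 6 groups, CA9 was near 0, and CDH6 was at 13.5, 0 and 28.6 FPKM in the 3 control groups. The defining markers of other cell types were at or near 0, PTPRC, CD3E and CD79A of blood, PECAM1, CDH5 and VWF of endothelium where listed, and COL1A2, COL3A1 and DCN of fibroblasts among them. LAPTM5 of blood and LUM of fibroblasts were above 1 FPKM: LAPTM5 went from 2.19 to 3.26 FPKM in the RBCK1 comparison and from 4.31 to 1.31 in the MITD1 comparison, and LUM from 1.47 to 1.95 and from 2.93 to 2.31. Their part in the results was not tested. Since the control groups differed, each knockdown was set against its own control, within its own table. Recovered reads ran from 16346478 to 18648246 per library in the RBCK1 table and from 17502646 to 19034974 in the ANKRD35 table. They ran from 12720620 to 13898898 in the MITD1 table, over the genes whose reads could be recovered.

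In the controls the members spanned a wide range of levels and kept much the same order, in tables that were normalized separately. PSMA7, an alpha subunit, was the most abundant alpha gene in all 3 control groups, at 181 ± 1.41, 156 ± 2.11 and 173 ± 6.35 FPKM (SD, n = 3). PSMC3 led the ATPases, PSMD2, a large scaffold subunit that binds ubiquitin shuttles, led the other cap genes, and PSME1 and POMP led the activators and assembly factors in all 3. The leading beta gene differed: PSMB7 in shcontrol (154 ± 5.498 FPKM), PSMB4 in sicontrol_for_siANKRD35 (200.2 ± 0.6303) and PSMB5 in sicontrol_for_siMITD1 (147 ± 4.22). In shcontrol PSMD2 (187 ± 4.24) and PSMA7 overlapped in their libraries and were the highest of all members. Across the 47 genes Spearman's rho between control groups was 0.954 for RBCK1 with ANKRD35, 0.891 for RBCK1 with MITD1 and 0.842 for ANKRD35 with MITD1, a description in which gene length and base composition are shared.

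Several members were at or near 0 in some or all libraries, or share exon bases with other gene models, so their values need care. PSMA8, the testis form of an alpha subunit, and PSMB11, the beta subunit of the thymus, were at or near 0 in every library. PSMA2 and PSMA6 were at about 1 FPKM or less in most libraries, far under the other alpha genes that work in the same ring. Of their exon bases, 14.6% and 14.1% lie in other protein-coding gene models on the same strand. For PSMA1 and PSMD9 that share was 24.7% and 19.9%. Whether this overlap moved the values was not tested. PSMB3 was at 108 and 181 FPKM in shcontrol and sicontrol_for_siANKRD35 but at 0, 0 and 0.0597 FPKM in the controls of the MITD1 table, where no library held more than 1 read. It is listed near 0 there and was not tested, and neither were PSMB8 and PSMB9, outside the rule, whose controls there averaged 0.0215 and 0.0153 FPKM against 67.3 and 59.0 in shcontrol. Of the exon bases of PSMC1, 75.8% lie opposite those of NRDE2, and of PSMB10, 34.8% lie on the same strand as a model named AC040162.1 that reached 0.581 FPKM in shcontrol. The sources used here do not give the counting strand. Pseudogenes of the members reached at most 4.4 FPKM in shcontrol or shRBCK1 libraries and 4.05 in the ANKRD35 table.

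In the RBCK1 comparison the genes of the inducible beta subunit and the ring activator were lower in the knockdown, and most other members differed little. PSMB10 was at 13.4, 13.4 and 12.03 FPKM in shcontrol and 5.49, 5.17 and 5.84 in shRBCK1 (log2 change −1.10, SE 0.058, adjusted p = 7.73e-06). PSME2, a subunit of the ring activator, was at 47.3, 47.96 and 45.4 FPKM in shcontrol and 25.5, 26.3 and 24.9 in shRBCK1 (log2 change −0.85, SE 0.036, adjusted p = 2.07e-06). PSME1, its partner in the ring, was at 110.5, 106 and 103 FPKM in shcontrol and 65.1, 69.8 and 68.5 in shRBCK1 (log2 change −0.65, SE 0.040, adjusted p = 1.61e-05). For these 3 genes every knockdown library lay below every control library, and the mean level was lower by 57.5%, 45.5% and 36.4%. In shcontrol, sicontrol_for_siANKRD35 and sicontrol_for_siMITD1, PSMB10 averaged 12.9, 6.45 and 9.88 FPKM. In the same order PSME2 averaged 46.9, 29.5 and 41.4, and PSME1 107, 87.2 and 142, in tables normalized separately. A difference in the shcontrol cells and an effect of the hairpin cannot be told apart here. PSMB8 and PSMB9, the other inducible beta genes, which the naming rule leaves out, fell by 1.35 and 1.82 on the log2 scale. In these bulk libraries fewer cells with a transcript and less RNA per cell cannot be told apart. Fold changes are on the scale of log2(FPKM + 1), tested with limma over all genes of the table and Benjamini-Hochberg adjustment.

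These 3 genes share a sequence just at their start. The letters GAAA, then any 2 bases, then GAAA again, on either strand, form the core of the interferon-stimulated response element. They occur in the RefSeq promoters (GRCh38.p14, from 250 bases before to 50 after the start) of 6 of the 41 members with an entry, or 14.6%, and in 3.6% of all 35093 promoters of that table. Here and for the motifs below, members are counted by gene, over any of their promoters, and the background by promoter. The shares are therefore not measured alike. The exact form GAAAGCGAAA, picked after the sites were seen, occurs in 35 of the 35093 promoters, 4 of them of members: PSMB10 (first base at −21 from the start), PSME2 (at −28), PSMG4 (at −33) and PSME1 (at 6, on the other strand, read TTTCGCTTTC). No interferon element overlapped another searched motif. The promoters of the 3 genes that fell most are printed 5′ to 3′ with the element in capitals, at chr16:67936801-67937100 on the minus strand, chr14:24135944-24136243 on the plus strand and chr14:24146561-24146860 on the minus strand.
PSMB10: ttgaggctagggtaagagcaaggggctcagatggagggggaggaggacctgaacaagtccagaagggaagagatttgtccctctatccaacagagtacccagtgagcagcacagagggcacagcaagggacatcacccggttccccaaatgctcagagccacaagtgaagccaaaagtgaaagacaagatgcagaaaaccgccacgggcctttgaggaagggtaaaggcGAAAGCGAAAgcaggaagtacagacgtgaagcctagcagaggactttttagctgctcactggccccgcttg
PSME1: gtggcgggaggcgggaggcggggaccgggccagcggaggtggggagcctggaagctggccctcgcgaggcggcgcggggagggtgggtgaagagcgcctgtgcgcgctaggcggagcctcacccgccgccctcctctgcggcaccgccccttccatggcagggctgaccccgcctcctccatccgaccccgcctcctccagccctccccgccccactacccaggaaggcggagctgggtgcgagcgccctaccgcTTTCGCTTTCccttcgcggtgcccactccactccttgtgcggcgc
PSME2: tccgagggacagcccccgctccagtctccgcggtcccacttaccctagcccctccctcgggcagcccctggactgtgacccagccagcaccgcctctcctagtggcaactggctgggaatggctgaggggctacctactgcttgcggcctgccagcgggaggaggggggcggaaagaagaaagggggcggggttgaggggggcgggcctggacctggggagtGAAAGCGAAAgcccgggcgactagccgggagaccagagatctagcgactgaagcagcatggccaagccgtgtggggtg
The other 3 members with the element are shown with 30 bases around it, at chr6:3258904-3258933 on the plus strand, chr15:78540155-78540184 on the plus strand and chr1:151399495-151399524 on the plus strand.
PSMG4: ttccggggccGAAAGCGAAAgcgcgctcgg
PSMA4: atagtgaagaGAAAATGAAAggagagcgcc
PSMB4: tcgtctacagGAAAAAGAAAgaaatgacac
In the RBCK1 comparison 3 of the 6 members with the element fell. Of the others, PSMG4, an assembly chaperone, had log2 change −0.075, SE 0.069, adjusted p = 0.393, PSMA4 0.029 and PSMB4 −0.057, none of which passed. Of the same 6 genes 4 were higher and 0 lower in the ANKRD35 comparison, and 2 were higher and 4 lower in the MITD1 comparison. Of all tested members 7 were higher and 18 lower of 44 in the RBCK1 comparison, and 33 and 1 of 44 in the ANKRD35 comparison. In the MITD1 comparison 15 were higher and 10 lower of 43. The shares of all genes called higher and lower were 24.1% and 24.9%, 19.4% and 16.9%, and 30% and 35.6%, in that order. A match in these letters is a description and not a shown binding site.

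Of the 44 members tested, 18 were lower and 7 higher at an adjusted p under 0.05, and 19 did not pass. Of all 12227 genes tested 49.1% were called, 24.9% lower and 24.1% higher, so the share of members called lower was above the background and the share called higher below it. The median log2 change was −0.11 over the members and 0.0054 over all genes. PSMA6 is among the 18 but met the expression filter through its control libraries alone, so it had to be lower. The groups did not overlap, knockdown lower, for 24 members, PSMA6 again among them (background 29.6%) and, knockdown higher, for 7 (background 29.4%).

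In the core, 3 of 6 tested alpha and 3 of 8 tested beta genes fell and none rose. The alpha count includes PSMA6, which had to be lower, so it says nothing on that gene. PSMA5, an alpha subunit, was at 27.5, 26.97 and 26.5 FPKM in shcontrol and 19.99, 19.97 and 19.8 in shRBCK1 (log2 change −0.42, SE 0.031, adjusted p = 4.06e-05), the largest fall among alpha genes well above the filter. Among the constitutive catalytic genes PSMB7 was at 158, 157 and 148 FPKM in shcontrol and 127, 133 and 126 in shRBCK1 (log2 change −0.26, SE 0.038, adjusted p = 0.00122). PSMB6 was at 111, 110.5 and 102 FPKM in shcontrol and 89.9, 93.6 and 92.8 in shRBCK1 (log2 change −0.23, SE 0.041, adjusted p = 0.00335). Both groups of libraries stayed apart for PSMB7 and PSMB6. PSMB5 was at 124, 124 and 114 FPKM in shcontrol and 109, 116 and 115 in shRBCK1 (log2 change −0.088, SE 0.044, adjusted p = 0.14), with overlapping groups. The share of PSMB10 in the sum of PSMB10 and PSMB7 went from 7.73% ± 0.184 to 4.096% ± 0.342 (SD, n = 3), so the inducible gene moved more than the gene whose product it replaces. Summed over the 17 core genes the level went from 1045 ± 30.2 to 940.2 ± 35.1 FPKM, a change of −10.0%.

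The cap moved in both directions. Of the 6 ATPases 4 fell, PSMC3 most (−0.25, from 93.5 to 78.5 FPKM), and none rose. Of the 14 other cap genes 4 fell, among them PSMD2 (−0.26) and PSMD7 (−0.27), which pairs with the deubiquitinase PSMD14, while 5 rose. The 5 were PSMD1, PSMD5, PSMD6, PSMD10 and PSMD12. PSMD10, a chaperone that holds an ATPase while the cap is built, was at 24.1, 24.6 and 21.3 FPKM in shcontrol and 27.7, 28.2 and 27.3 in shRBCK1 (log2 change 0.24, SE 0.054, adjusted p = 0.00832). PSMD1, a large scaffold subunit, was at 41.2, 42.3 and 41.9 FPKM in shcontrol and 50.4, 45.7 and 46.7 in shRBCK1 (log2 change 0.18, SE 0.042, adjusted p = 0.00897). PSMD12, a subunit of the cap's lid, was at 17.3, 17.6 and 16.8 FPKM in shcontrol and 18.9, 20.6 and 19.5 in shRBCK1 (log2 change 0.18, SE 0.041, adjusted p = 0.00865). All knockdown libraries were above all controls for these 3. PSMD5, another chaperone of cap assembly, rose by 0.12 (adjusted p = 0.0337) and PSMD6, a lid subunit, by 0.15 (adjusted p = 0.0258).

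Among the assembly factors of the core, POMP, which sits inside the growing core until it is complete, was at 84.5, 78.2 and 77.1 FPKM in shcontrol and 67.8, 67.8 and 66.5 in shRBCK1 (log2 change −0.24, SE 0.040, adjusted p = 0.00207). PSMG3 was at 20.1, 18.8 and 17.9 FPKM in shcontrol and 20.8, 23.2 and 21.3 in shRBCK1 (log2 change 0.19, SE 0.056, adjusted p = 0.0245). PSMG1 was at 28.3, 28.3 and 28.2 FPKM in shcontrol and 30.6, 31.3 and 29.6 in shRBCK1 (log2 change 0.11, SE 0.033, adjusted p = 0.0284). PSMG1 and PSMG3 encode chaperones of the alpha ring and rose while POMP fell, with no overlap of libraries in any of the 3. The other activators, PSME3 of the nucleus and PSME4, had changes of −0.057 and −0.036 that did not pass, and the inhibitor gene PSMF1 fell by 0.18. Summed over the 4 activator genes the level went from 198 ± 4.77 to 136 ± 3.27 FPKM, a change of −31.2%. Which calls were lost depended on the setting. Higher calls numbered 4 without shcontrol replicate 1 or 2, and 3 without shcontrol replicate 3 or shRBCK1 replicate 2, while PSMD1, PSMD10 and PSMD12 kept their call with each library left out in turn. Under quantile normalization 10 members were higher and 11 lower in place of 7 and 18. All genes moved up in that setting too. Their median log2 change was 0.039 in place of 0.0054, and 56.9% of called genes were higher in place of 49.2%.

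**Figure D1:**
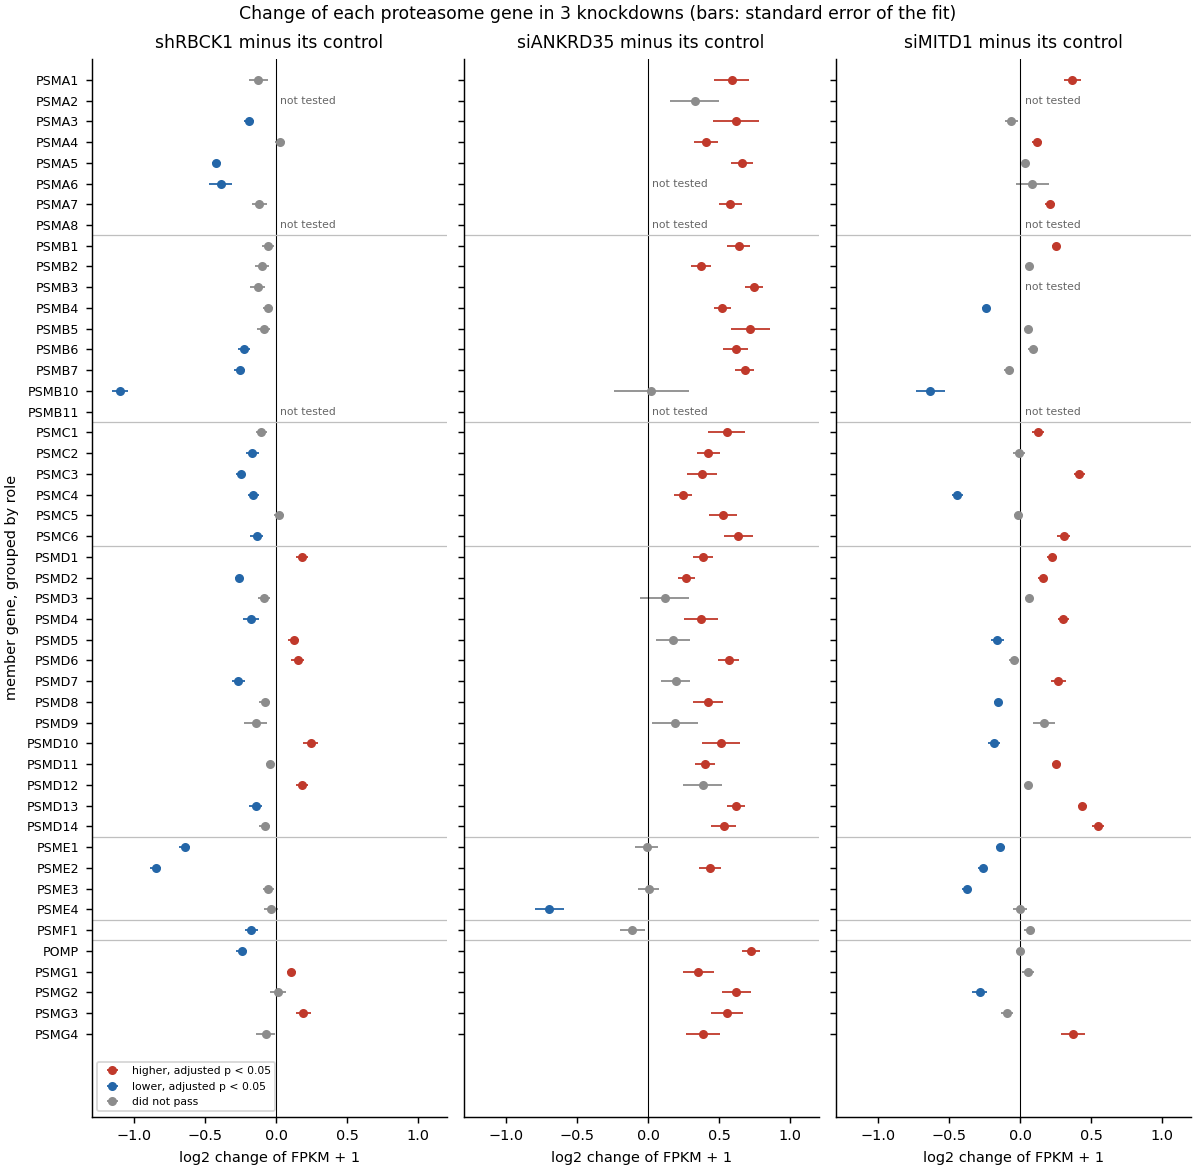
Log2 change of FPKM + 1 (horizontal axis) of each member (rows, grouped by role) in the 3 knockdowns, with the standard error of the fit as bars and colour for the call. In shRBCK1 the points of PSMB10 (−1.10), PSME2 (−0.85) and PSME1 (−0.65) stand left of the rest, in siANKRD35 most points stand right of 0 with PSME4 (−0.70) left of it, and in siMITD1 they lie on both sides.

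In the ANKRD35 comparison most core, cap and assembly genes were higher in siANKRD35, while of the 4 activators 1 was higher, 1 lower and the others did not pass. The ANKRD35 gene itself was abundant in sicontrol_for_siANKRD35 and at or near 0 in siANKRD35 and in the other control groups. A difference in these control cells and an effect of the siRNA cannot be told apart here. Of 44 members tested, 33 were higher and 1 lower, and 10 did not pass, against 36.3% of all 11890 genes called, 19.4% higher and 16.9% lower. The median log2 change was 0.42 over the members and 0.033 over all genes. Knockdown libraries lay above all controls for 34 members (background 28.1%) and below them for 1 (background 24.1%). By role 5 of 6 tested alpha genes, 7 of 8 beta genes, 6 of 6 ATPases, 9 of 14 other cap genes and 5 of 5 assembly factors rose, but 1 of 4 activators.

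Before any correction for gene length the largest increases were in the beta ring and its assembly factor. With that correction the order turned: PSMC6 (0.74), PSMD6 (0.74), PSMA5 (0.69), PSMD14 (0.65) and PSMC1 (0.60) led, and PSMB3 (0.54), POMP (0.48), PSMB5 (0.44) and PSMB7 (0.40) came after them. PSMB3, a structural beta subunit, was at 179, 177 and 186 FPKM in sicontrol_for_siANKRD35 and 314, 293 and 302 in siANKRD35 (log2 change 0.74, SE 0.065, adjusted p = 0.000855). POMP was at 82.3, 83.3 and 84.1 FPKM in sicontrol_for_siANKRD35 and 144, 136 and 135 in siANKRD35 (log2 change 0.73, SE 0.063, adjusted p = 0.000855). PSMB7 was at 106, 106 and 106 FPKM in sicontrol_for_siANKRD35 and 179, 166 and 167 in siANKRD35 (log2 change 0.68, SE 0.065, adjusted p = 0.00112). Each of these was tight within its group and the groups lay far apart. PSMB5 was at 77.2, 70.4 and 76.1 FPKM in sicontrol_for_siANKRD35 and 151, 102 and 122 in siANKRD35 (log2 change 0.72, SE 0.14, adjusted p = 0.00818). PSMB6 was at 132, 124 and 135 FPKM in sicontrol_for_siANKRD35 and 220.2, 200.4 and 181 in siANKRD35 (log2 change 0.62, SE 0.089, adjusted p = 0.00321). In PSMB5 and PSMB6 replicate 1 was the highest knockdown library, and all 3 knockdown libraries were above the controls. PSMB10 alone among the expressed beta genes had knockdown libraries on both sides of its controls: it was at 6.51, 6.63 and 6.203 FPKM in sicontrol_for_siANKRD35 and 9.25, 3.76 and 7.82 in siANKRD35 (log2 change 0.021, SE 0.26, adjusted p = 0.959). Its share in the sum with PSMB7 went from 5.73% ± 0.185 to 3.87% ± 1.45, and without siANKRD35 replicate 2 its log2 change was 0.35 and passed. PSMB8 and PSMB9, outside the rule, rose by 0.40 and 0.56.

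Among alpha genes PSMA5 rose by 0.66 (from 20.8 to 33.6 FPKM) and PSMA7 by 0.58 (from 156 to 234). Of the cap genes PSMD13, a lid subunit, had the smallest adjusted p (log2 change 0.62, SE 0.064, adjusted p = 0.00135), and PSMC6, an ATPase, the largest change (0.63). PSMD3, PSMD5, PSMD7, PSMD9 and PSMD12 did not pass, with changes from 0.12 to 0.38. Summed levels went from 1086 ± 14.9 to 1672 ± 74.1 FPKM for the core (54.0%), from 775 ± 9.39 to 1010.3 ± 35.9 FPKM for the cap (30.3%) and from 133 ± 2.82 to 212 ± 8.97 FPKM for the assembly factors (59.0%). These sums are not corrected for gene length. With that correction the median log2 change was 0.39 in place of 0.60 for the core and 0.32 in place of 0.39 for the cap. For the assembly factors it was 0.47 in place of 0.56.

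The activators divided. PSME4, which encodes a large single-chain activator of the nucleus, was the only member that fell, at 7.38, 7.87 and 7.93 FPKM in sicontrol_for_siANKRD35 and 3.85, 5.18 and 4.204 in siANKRD35 (log2 change −0.70, SE 0.10, adjusted p = 0.00361). PSME2 rose, at 29.002, 31.6 and 27.98 FPKM in sicontrol_for_siANKRD35 and 42.9, 39.5 and 38.4 in siANKRD35 (log2 change 0.44, SE 0.080, adjusted p = 0.00718). Its ring partner PSME1 was at 84.996, 85.6 and 90.95 FPKM in sicontrol_for_siANKRD35 and 84.9, 94.8 and 80.4 in siANKRD35 (log2 change −0.011, SE 0.082, adjusted p = 0.933), with overlapping groups. PSME3 did not pass either, with means of 59.7 and 59.9 FPKM, and neither did PSMF1 (−0.11). The sum of the 4 activator genes went from 184 ± 3.14 to 191 ± 10.4 FPKM, a change of 3.86% that hides the opposite calls of PSME2 and PSME4.

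Gene length and differences among the knockdown libraries moved with this comparison. Over all genes the change ran against gene length (Spearman's rho −0.413, a description across genes), and the tested members are shorter than the rest, with a median of 3564.5 bases against 4567. Within length classes the members were still higher than the other genes: below 2000 bases the median change was 0.62 for members and 0.26 for all genes, from 2000 to 4000 bases 0.43 and 0.19, from 4000 to 6000 bases 0.35 and 0.022, and from 6000 bases 0.41 and −0.14. With each library centred on a curve over length, the members' median was 0.35 and 25 of the 34 calls were kept. With length and GC content together it was 0.34 and 31 were kept. PSMC4, an ATPase, kept next to nothing of its change under the length correction (0.0022 in place of 0.24). The libraries of siANKRD35 also differed among themselves. Deviations of replicate 2 ran against GC content (rho −0.726 over all genes, −0.666 over the members). Those of replicates 1 and 3 ran with it (0.672 and 0.436 over all genes, 0.657 and 0.367 over the members), so these values alone do not single out a library. The median coefficient of variation of the members was 11.5% in siANKRD35 and 3.63% in the controls. Without replicate 2 all 34 calls were kept and PSMB10, PSMD3, PSMD9 and PSMD12 were called as well. Genes called over the whole table then numbered 3516 higher and 3020 lower in place of 2305 and 2007. Under quantile normalization 19 members were higher in place of 33, with a median of 0.25. Of all called genes 45.1% were higher in that setting in place of 53.5%, and the median over all genes was 0.015 in place of 0.033.

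**Figure D2:**
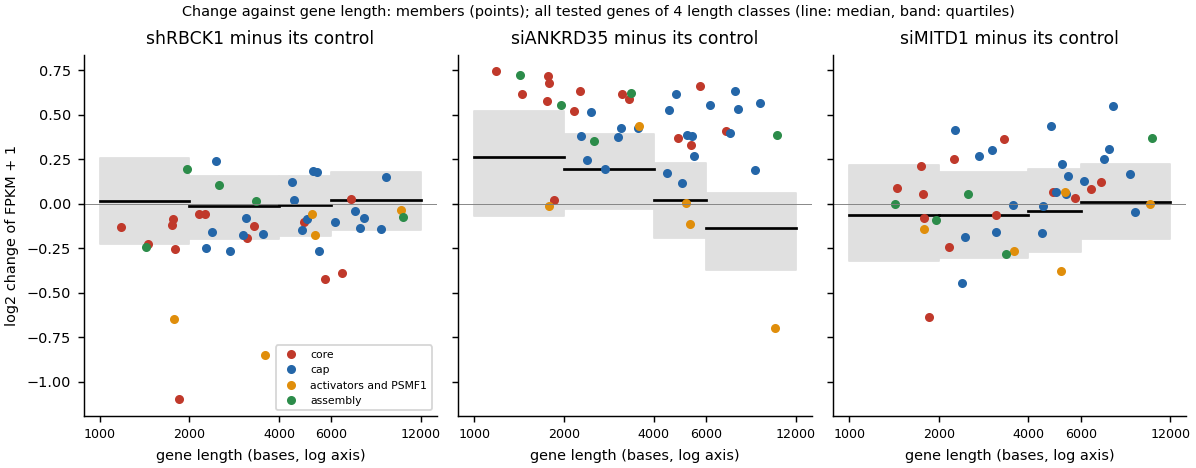
Log2 change of FPKM + 1 (vertical axis) of the members against gene length in bases (log axis) in the 3 comparisons, coloured by role, over the median (line) and quartiles (band) of all tested genes in 4 length classes. In siANKRD35 the line falls from 0.26 to −0.14 with length, and the members of 6000 bases or more keep a median of 0.41 with PSME4 at −0.70.

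**Figure D3:**
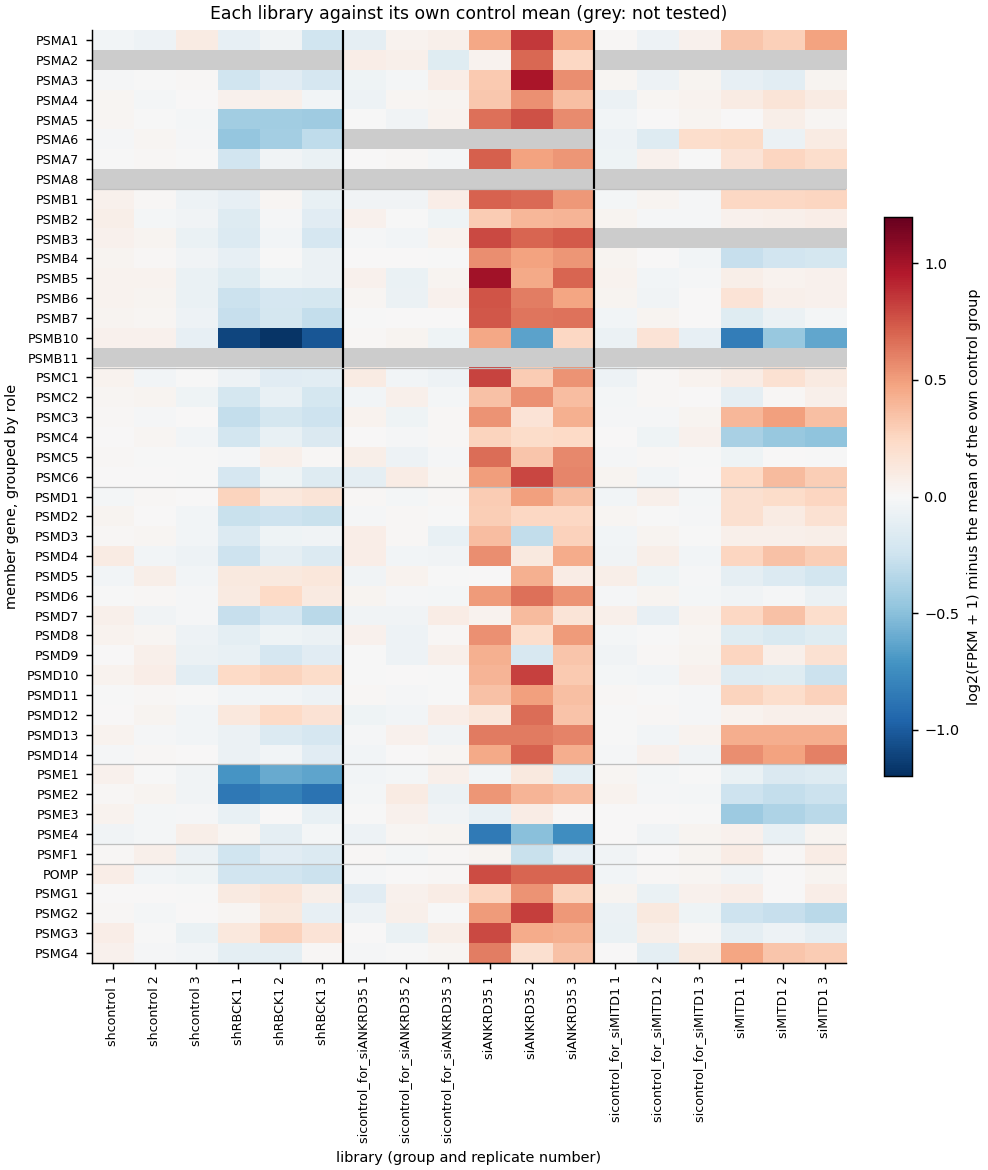
Each library (columns) of each member (rows, grouped by role) as log2(FPKM + 1) minus the mean of its own control group. The siANKRD35 columns are red in nearly every core, cap and assembly row, most unevenly in replicate 2, and the shRBCK1 columns are darkest blue for PSMB10, PSME1 and PSME2.

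In the MITD1 comparison members differed in both directions. Of the 20 cap genes 10 were higher and 4 lower, and of the 4 activators 3 were lower. Of 43 members tested, 15 were higher and 10 lower, and 18 did not pass, against 65.6% of all 10415 genes called, 30% higher and 35.6% lower. The members were thus called in a smaller share than all genes (25 of 43), and the share called higher was near the background. The median log2 change was 0.054 over the members and −0.026 over all genes. Knockdown libraries lay above all controls for 20 members (background 32.5%) and below them for 10 (background 37.9%).

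The cap held the largest increases. PSMD14, the deubiquitinase that strips ubiquitin from substrates, was at 14.97, 15.8 and 14.7 FPKM in sicontrol_for_siMITD1 and 22.8, 21.5 and 23.6 in siMITD1 (log2 change 0.55, SE 0.045, adjusted p = 1.13e-05). PSMD13 was at 34.6, 33.9 and 35.8 FPKM in sicontrol_for_siMITD1 and 47.3, 47.5 and 47.5 in siMITD1 (log2 change 0.44, SE 0.031, adjusted p = 4.64e-06). PSMC3 was at 57.5, 57.6 and 59.5 FPKM in sicontrol_for_siMITD1 and 77.03, 82.1 and 75.1 in siMITD1 (log2 change 0.42, SE 0.037, adjusted p = 1.83e-05). All 3 knockdown libraries were above all controls for each, and PSMD4, a ubiquitin receptor (0.30), PSMC6 (0.31), PSMD7 (0.27), PSMD11 (0.25), PSMD1 (0.22), PSMD2 (0.16) and PSMC1 (0.13) rose too. Against these, PSMC4 was at 48.6, 46.7 and 50.2 FPKM in sicontrol_for_siMITD1 and 36.8, 34.99 and 34.4 in siMITD1 (log2 change −0.44, SE 0.038, adjusted p = 1.49e-05). PSMD8, a lid subunit, was at 59.95, 60.98 and 62.1 FPKM in sicontrol_for_siMITD1 and 55.2, 53.6 and 54.9 in siMITD1 (log2 change −0.16, SE 0.028, adjusted p = 0.00102). Assembly chaperones of the cap fell as well: PSMD10 by 0.19 (from 26.995 to 23.6 FPKM, adjusted p = 0.0038) and PSMD5 by 0.16 (from 18.1 to 16.04, adjusted p = 0.0134), while PSMD9 did not pass (0.17). PSMC3 and PSMC4, both ATPases of the same ring, thus moved in opposite directions.

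PSMD13 and PSMD14, the members with the smallest adjusted p among those that rose, have in their promoters the letters CCGGAAG, a core recognised by ETS factors. These letters, on either strand, are in 16 of 41 members' promoters (39%) and in 10.3% of all. Of the members with them, 6 of 15 tested were higher and 1 lower in the MITD1 comparison, 9 higher and 1 lower of 14 in the ANKRD35 comparison, and 2 higher and 7 lower of 15 in the RBCK1 comparison. The 7 include PSMA6, which had to be lower. Over all tested members the counts were 15 and 10 of 43, 33 and 1 of 44, and 7 and 18 of 44. Both promoters are printed 5′ to 3′ with the letters in capitals, at chr11:236726-237025 on the plus strand and chr2:161308175-161308474 on the plus strand.
PSMD13: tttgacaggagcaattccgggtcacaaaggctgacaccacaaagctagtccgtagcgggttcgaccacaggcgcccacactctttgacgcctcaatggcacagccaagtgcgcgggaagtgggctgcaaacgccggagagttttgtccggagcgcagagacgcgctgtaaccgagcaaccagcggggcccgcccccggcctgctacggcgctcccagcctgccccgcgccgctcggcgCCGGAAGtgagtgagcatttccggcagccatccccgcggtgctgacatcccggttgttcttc
PSMD14: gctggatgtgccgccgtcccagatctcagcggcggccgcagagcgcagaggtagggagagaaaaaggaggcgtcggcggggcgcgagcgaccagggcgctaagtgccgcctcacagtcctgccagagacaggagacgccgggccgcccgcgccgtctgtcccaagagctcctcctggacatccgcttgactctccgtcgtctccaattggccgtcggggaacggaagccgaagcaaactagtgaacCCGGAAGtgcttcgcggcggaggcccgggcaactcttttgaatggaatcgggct
The other searched motifs, on both strands, were CCAAT (46.3% of members, 34.6% of all promoters), the antioxidant element TGANNNNGC (63.4% and 41.8%) with its longer form TGANTCAGC (2.4%, PSMD9 alone, and 1.4%), the STAT element TTCNNNGAA (17.1% and 7.7%) and the heat shock element GAANNTTC (0 and 6.8%). In 5 promoters, those of PSMA3, PSMA5, PSMA8, PSMB5 and PSMD9, an antioxidant element overlapped another of these.

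In the core 3 of 6 tested alpha genes rose, PSMA1 (0.37), PSMA7 (0.21) and PSMA4 (0.12), and none fell. Of 7 tested beta genes PSMB1 rose (0.25) and PSMB4 and PSMB10 fell. PSMB10 was at 9.33, 11.1 and 9.15 FPKM in sicontrol_for_siMITD1 and 5.096, 6.91 and 6.05 in siMITD1 (log2 change −0.63, SE 0.10, adjusted p = 0.000622). PSMB4, a structural subunit, was at 137, 135 and 131 FPKM in sicontrol_for_siMITD1 and 110.1, 114 and 115 in siMITD1 (log2 change −0.24, SE 0.029, adjusted p = 0.000107). Neither gene's groups overlapped. The constitutive catalytic genes did not pass: PSMB5 went from 147 ± 4.22 to 152 ± 1.59 FPKM (SD, n = 3, log2 change 0.054, SE 0.027, adjusted p = 0.109), PSMB6 from 127 ± 3.39 to 135 ± 5.92 (log2 change 0.090, SE 0.036, adjusted p = 0.0539) and PSMB7 from 129 ± 3.14 to 122 ± 5.17 (log2 change −0.082, SE 0.035, adjusted p = 0.0695). The share of PSMB10 in its sum with PSMB7 went from 7.08% ± 0.619 to 4.68% ± 0.583. The summed level of the core genes, PSMB3 adding almost nothing, went from 1043 ± 3.48 to 1079.5 ± 10.4 FPKM (3.51%), and that of the cap from 700.2 ± 3.64 to 765 ± 4.25 FPKM (9.26%).

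Of the activators 3 of 4 fell. PSME3 was at 42.6, 42.6 and 42.5 FPKM in sicontrol_for_siMITD1 and 31.2, 32.7 and 33.8 in siMITD1 (log2 change −0.38, SE 0.035, adjusted p = 2.18e-05). PSME2 was at 42.6, 40.9 and 40.8 FPKM in sicontrol_for_siMITD1 and 34.6, 33.8 and 34.5 in siMITD1 (log2 change −0.26, SE 0.030, adjusted p = 8.33e-05). PSME1 was at 145, 139.7 and 142 FPKM in sicontrol_for_siMITD1 and 134, 125 and 127 in siMITD1 (log2 change −0.14, SE 0.031, adjusted p = 0.00376). In all 3 the groups lay apart, and their summed level with PSME4 went from 236 ± 3.61 to 206 ± 4.51 FPKM, a change of −12.8%. The PSME1 call did not hold under the length correction (−0.078). Among assembly factors PSMG4 rose (0.37), PSMG2, a chaperone of the alpha ring, was at 21.9, 24.99 and 22.2 FPKM in sicontrol_for_siMITD1 and 19.2, 18.8 and 18.2 in siMITD1 (log2 change −0.28, SE 0.052, adjusted p = 0.0013), and POMP was at 74.5, 76.6 and 77.2 FPKM in sicontrol_for_siMITD1 and 73.7, 76.2 and 77.9 in siMITD1 (log2 change −0.0030, SE 0.030, adjusted p = 0.937).

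**Figure D4:**
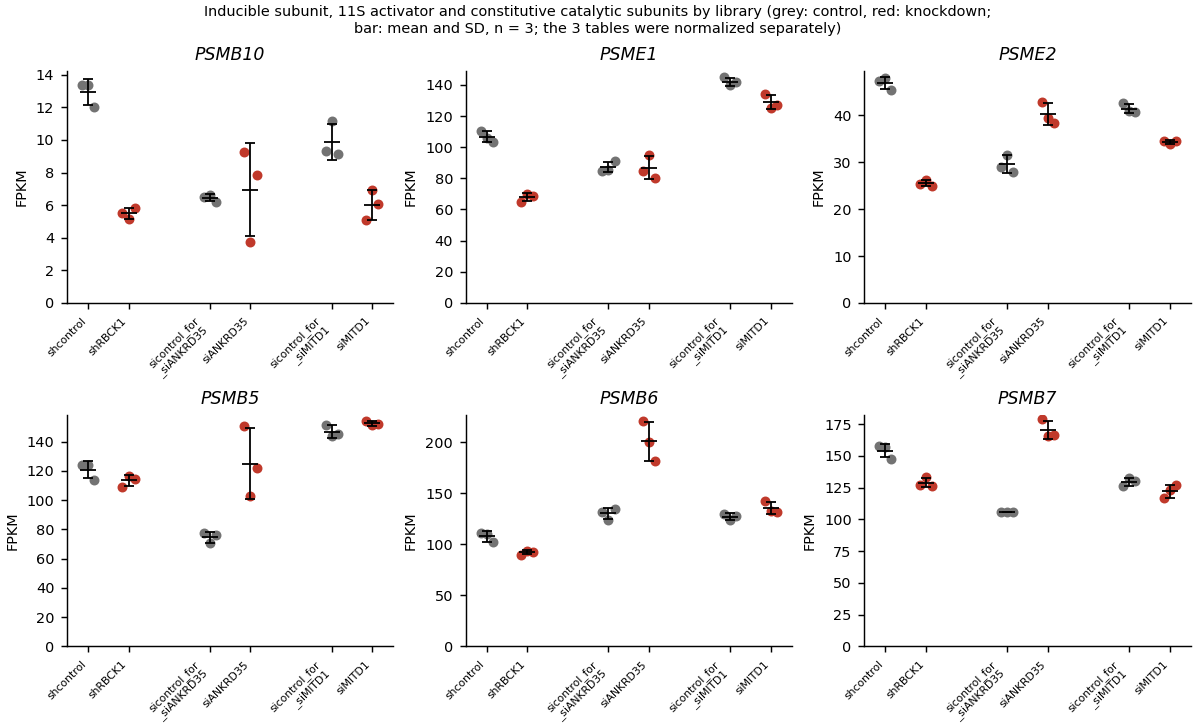
FPKM per library (points, grey control and red knockdown, with mean and SD of n = 3) of the inducible beta gene PSMB10, the ring activator genes PSME1 and PSME2 and the constitutive catalytic genes PSMB5, PSMB6 and PSMB7; each vertical axis starts at 0. PSMB10 drops from 12.9 to 5.498 in shRBCK1 and from 9.88 to 6.02 in siMITD1, and its siANKRD35 libraries spread from 3.76 to 9.25.

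The difference between the changes was tested directly in a joint limma fit of all 18 libraries, over the 42 members tested in every table. The fit takes a single spread per gene over all 6 groups. The members' median coefficient of variation was 11.5% in siANKRD35, 4.17% in shRBCK1 and 3.44% in siMITD1. Standard errors of differences that involve siANKRD35 may thus be too small, and their p-values too low. The change in siANKRD35 was above that in shRBCK1 for 34 members and below it for 1, with a median difference of 0.54 (background 28.6% and 23.3% of 9257 genes, 52% in either direction). It was above that in siMITD1 for 29 and below it for 1, with a median difference of 0.35 (background 35.3% and 27.3%, 62.6% in either). The change in siMITD1 was above that in shRBCK1 for 19 and below it for 8, with a median difference of 0.20 (background 24.5% and 27.2%, 51.7% in either). Under quantile normalization 16 members in place of 29 were above, and 5 in place of 1 below, in the comparison of siANKRD35 with siMITD1. The single member below in both differences that involve siANKRD35 was PSME4 (−0.66, SE 0.11, adjusted p = 7.46e-05 against shRBCK1, and −0.70, SE 0.11, adjusted p = 2.68e-05 against siMITD1).

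PSME2 had the smallest adjusted p among the members set out here, falling in shRBCK1 and siMITD1 and rising in siANKRD35 (difference 1.29, SE 0.073, adjusted p = 5.11e-10 between siANKRD35 and shRBCK1). For PSMB7 the same difference was 0.94, SE 0.064, adjusted p = 5.50e-09, and for POMP 0.97, SE 0.061, adjusted p = 1.96e-09. PSMB10 and PSME1 were lower in shRBCK1 and in siMITD1. For PSME1 the fall was larger in shRBCK1 (siMITD1 minus shRBCK1 0.51, SE 0.078, adjusted p = 4.63e-05). For PSMB10 the difference was 0.47, SE 0.26, adjusted p = 0.153 and did not pass, with the wide siANKRD35 libraries in the shared error. PSMD10 rose in shRBCK1 and fell in siMITD1 (−0.43, SE 0.13, adjusted p = 0.0116), as did PSMD5. PSMD1 was the only member called higher in all 3 comparisons, by 0.18, 0.39 and 0.22 in shRBCK1, siANKRD35 and siMITD1, and none was lower in all 3. PSMD3 and PSMD9, of the cap, passed in none. Over members the changes in any pair of comparisons were weakly related in rank (Spearman's rho −0.011, −0.068 and 0.109 over 43, 43 and 42 members, a description), whereas their control levels were closely ranked.

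**Figure D5:**
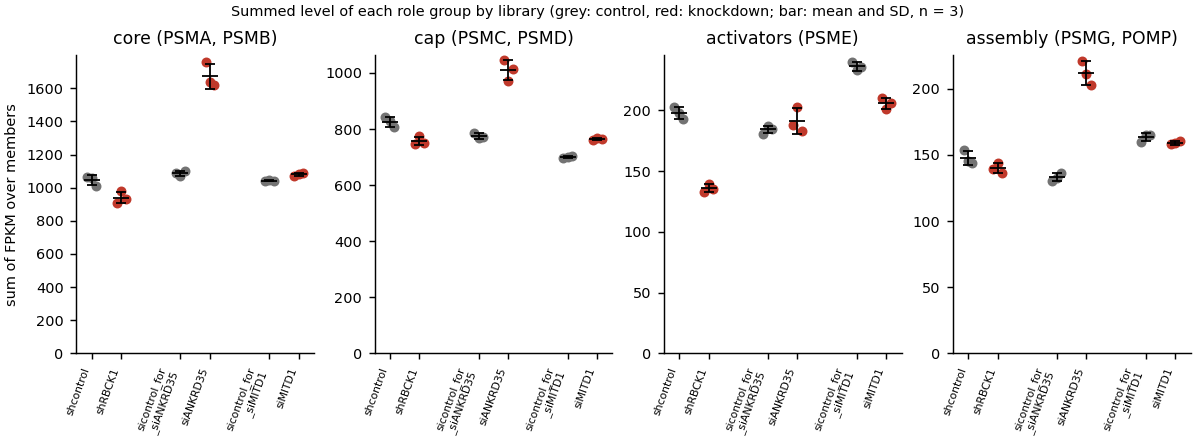
Summed FPKM of the core, cap, activator and assembly genes per library (points, grey control and red knockdown, with mean and SD of n = 3; each axis starts at 0). The siANKRD35 points stand above their own controls for core, cap and assembly, and the shRBCK1 points below theirs for the activators, at 136 against 198 in shcontrol.

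Genes known to set proteasome gene levels moved as follows. NFE2L1 was at 70.6, 68.9 and 68.4 FPKM in shcontrol and 57.5, 54.8 and 57.8 in shRBCK1 (log2 change −0.29, SE 0.033, adjusted p = 0.000374). It was at 95.1, 91.6 and 87.4 FPKM in sicontrol_for_siANKRD35 and 66.03, 46.4 and 58.6 in siANKRD35 (log2 change −0.69, SE 0.13, adjusted p = 0.00778). It was at 36.5, 36.7 and 35.4 FPKM in sicontrol_for_siMITD1 and 86.9, 87.3 and 87.998 in siMITD1 (log2 change 1.25, SE 0.027, adjusted p = 1.29e-08). NFE2L1 thus fell in the RBCK1 comparison, where more members were called lower than higher, fell in the ANKRD35 comparison, where most were higher, and rose in the MITD1 comparison, where members moved both ways. Of a list of 11 genes for control of proteasome transcription 2 were higher and 7 lower of 11 tested in the RBCK1 comparison (all genes 24.1% and 24.9%), 0 and 3 of 10 in the ANKRD35 comparison (19.4% and 16.9%), and 6 and 2 of 11 in the MITD1 comparison (30% and 35.6%). DDI2, the protease that activates the NFE2L1 protein, fell by 0.19 in shRBCK1 and 0.47 in siANKRD35 and did not pass in siMITD1 (−0.017).

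From a list for interferon control of the inducible subunits, STAT2 (−2.27), NLRC5 (−1.70), IRF1 (−1.07) and IRF9 (−1.06) fell in the RBCK1 comparison. IRF9 met the expression filter through its control libraries alone (2.24 FPKM on average, and 0.558 in shRBCK1), so it had to be lower. IRF1, a transcription factor induced by interferon, was at 11.8, 13.02 and 12.1 FPKM in shcontrol and 5.26, 5.32 and 5.37 in shRBCK1. It fell in the MITD1 comparison too (log2 change −0.55, SE 0.056, adjusted p = 4.15e-05), and did not pass in the ANKRD35 comparison (log2 change 0.13, SE 0.073, adjusted p = 0.204). STAT2 (0.097) and NLRC5 (−0.12) did not pass in the MITD1 comparison, and IRF9 was not tested there. In the ANKRD35 comparison STAT2 did not pass either (−0.12), and NLRC5 and IRF9 were not tested. PSMB10 and PSME1 were called lower in the RBCK1 and MITD1 comparisons and not in the ANKRD35 comparison, and whether the factors account for that was not tested. Of the other proteasome genes outside the naming rule, 1 was higher and 5 lower of 9 in the RBCK1 comparison, 3 and 1 of 9 in the ANKRD35 comparison and 3 and 0 of 6 in the MITD1 comparison, against the same shares of all genes (24.1% and 24.9%, 19.4% and 16.9%, 30% and 35.6%). ADRM1, a ubiquitin receptor of the cap, fell in shRBCK1 from 96.4 to 69.5 FPKM (log2 change −0.47, SE 0.038, adjusted p = 6.05e-05), and AKIRIN2, which brings proteasomes into the nucleus, fell there (−0.40) and rose in siMITD1 (0.27).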

How the data were processed

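Sample titles gave each library its group and replicate number. Total RNA went through a directional library kit, per the labels' protocols. The values are FPKM as deposited by the authors, in 3 tables normalized separately, per the file headers. The submitters' processing notes name mm10, a mouse build, but all 58735 genes of the RBCK1 and ANKRD35 tables share start and end with GENCODE 29 on GRCh38. Aligner, counter and counting strand: not given in the sources used here. In the ANKRD35 table the knockdown columns say ShRNA where the titles say si, and 6 value columns that name no sample were left unused. FPKM times gene length gave whole reads (tolerance 0.01) for 100% of values in these tables. Lengths of the RBCK1 table did so for 91.7% of 13401 MITD1-table symbols above 0 in every library, all 47 members among them.

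Genes that reached 1 FPKM in 3 or more of a table's 6 libraries were fitted as log2(FPKM + 1) with limma 3.58.1 (limma-trend, R 4.3.3), two-sided, knockdown against own control, without a replicate block, and called at a Benjamini-Hochberg adjusted p under 0.05 over all genes tested. A pseudocount of 1 understates changes of low genes. The design allowed for a count test, and the tables hold FPKM, so limma was used. The scripts were tested on simulated data. Members with values of every library were, per comparison, the 3 with the smallest adjusted p in each direction, those called against the sign of the members' median, the catalytic genes, POMP, PSME1 and PSME2. PSMA5 and NFE2L1 were added after their values were seen. The members and gene lists were chosen with earlier results of these data known, so counts over them are descriptions. Some genes of these lists are not reported here. Alternatives were other pseudocounts, filters, scalings, corrections for length and GC content, a replicate block and leaving out each library.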

Additional observations from a re-analysis of the deposited data

How the results depend on the processing

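No member called in a comparison changed sign under any setting run. In the RBCK1 comparison members called higher numbered 4 without the filter on low values and 3 to 6 when leaving out each library, and under quantile normalization 10 were higher and 11 lower with a median of −0.040. Of all called genes 56.9% were higher under quantile normalization, against 49.2%. In the ANKRD35 comparison the members' median was 0.47 with a pseudocount of 0.1, 0.25 under quantile normalization (19 higher), 0.35 with the length correction, 0.34 with length and GC content and 0.45 with voom on recovered reads, the last 2 chosen after seeing the data. Genes called there numbered 1530 higher without the filter, 1164 lower at a filter of 5 FPKM, 1167 to 3516 higher and 1100 to 3020 lower when leaving out each library, the highest without siANKRD35 replicate 2. Of called genes 63.7% were higher at the filter of 5 FPKM, against 53.5%. Differences between comparisons numbered 2 negative (siANKRD35 minus shRBCK1) and 16 positive and 5 negative (siANKRD35 minus siMITD1) under quantile normalization, and 4 negative in the latter with the length correction. Values near 0 that never passed changed sign: PSME1 in siANKRD35 to 0.00081 (median-of-ratios scaling; −0.076 to 0.042 when leaving out a library; its largest moves were to −0.29 with length, −0.25 with length and GC content and −0.24 under quantile normalization, none of which passed), and POMP in siMITD1 to 0.010 (quantile), 0.027 (median-of-ratios), 0.032 (length) and 0.029 (voom; −0.021 to 0.018 when leaving out a library). PSMB10 in siANKRD35 went to −0.26 (length), −0.19 (length and GC) and −0.018 (voom), with −0.20 to 0.35 when leaving out a library. The causes were not tested.

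The replicate numbers did not pair the libraries: deviations of same-numbered libraries correlated at −0.0068, 0.0076 and 0.028 (RBCK1), 0.179, 0.114 and −0.087 (ANKRD35) and 0.105, 0.032 and −0.00086 (MITD1). With the number as a block, 5 members were higher and 16 lower in the RBCK1 comparison, 31 and 1 in the ANKRD35 comparison, and 16 and 11 in the MITD1 comparison. The block with the length correction gave 1458 genes higher and a member median of 0.35 in the ANKRD35 comparison, PSMB10 at −0.26 there and POMP at 0.032 in siMITD1. The planned edgeR and DESeq2 fits were not run because the tables hold FPKM.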

Other observations

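The genes for ubiquitin and for factors that hand substrates to the proteasome were read from the same fits. Of 12 tested receptors, shuttles and deubiquitinases, 3 were higher and 2 lower in the RBCK1 comparison (background 24.1% and 24.9%), 1 and 2 in the ANKRD35 comparison (19.4% and 16.9%) and 5 and 5 in the MITD1 comparison (30% and 35.6%). The shuttle gene RAD23B fell by 0.17 in siMITD1, and the cap's deubiquitinase genes USP14 and UCHL5 fell by 0.36 and 0.15 as PSMD14 rose. ZFAND2A, a stress-induced partner of the proteasome, fell by 1.05 in shRBCK1. UBE3A, a ubiquitin ligase, rose in shRBCK1 (0.27) and siMITD1 (0.84).

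The ubiquitin gene UBB rose in shRBCK1 (0.23) and siANKRD35 (0.32) and fell in siMITD1 (−0.46). VCP, the segregase that extracts ubiquitinated proteins, rose by 0.15 in siMITD1 and did not pass in the others (−0.065 in shRBCK1, 0.12 in siANKRD35). Of VCP and its 6 cofactors 0 were higher and 4 lower in the RBCK1 comparison, 3 and 2 in the ANKRD35 comparison and 2 and 1 in the MITD1 comparison, beside the background shares above. The cofactor genes NSFL1C, UBXN1 and UFD1 fell in shRBCK1 (−0.12, −0.27 and −0.19) and rose in siANKRD35 (0.86, 0.48 and 0.32), whereas NPLOC4 fell in both (−0.11 and −0.41) and FAF2 fell in siANKRD35 (−0.20). The limma test over all genes of each table was used for these calls.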
